A study of Mus musculus with 2 samples.

Results

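Interferon-stimulated genes (ISGs) and immune GTPases were examined by RNA sequencing in peritoneal macrophages that thioglycolate had elicited in C57BL/6 mice of wild-type genotype. The members are a list of 51 genes that interferons are known to induce, chosen by name and matched to the deposited tables by NCBI gene number. Of the 51, 50 were listed in both libraries, among 15623 genes listed in all. The cells came from mice aged 6 to 8 weeks that had been injected intraperitoneally with 4% thioglycolate, an irritant that draws macrophages into the cavity. They were collected 4 to 5 days later, purified by adherence for 4 h and starved in medium with 0.5% serum. The cells of one library were nontreated (NT) and those of the other received 20 ng per mL of IL-4 for 6 h, a cytokine of type 2 immunity that signals through Stat6 and turns macrophages toward the M2 state. The 2 groups had 1 library each, so no difference here could be set against the spread between animals. The number of mice behind each library was not given in the sources used here. One label field names peritoneal macrophages and another names bone marrow as the tissue, and the former was followed.

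Interferons act through cell surface receptors and the kinases Jak1, Jak2 and Tyk2. Type I interferons direct Stat2 and Irf9 to the interferon-stimulated response element (ISRE), and interferon-γ acts through gamma-activated sites (GAS). The induced genes encode sensors of viral RNA and DNA, enzymes and membrane proteins that block viral replication, and GTPases of the GBP and IRG families that attack the vacuoles of intracellular pathogens. In macrophages many of them are also expressed at a low level without infection.

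The NT library held 11035641 expected counts (the reads assigned to each gene by estimation) and the IL-4 library 11250099. All 8 macrophage markers were listed, from 6.59 FPKM for Fcgr1 to 11289 FPKM for Lyz2 in the NT library. FPKM is the level per length of transcript and per library size. The markers of other cells of the cavity were low. Summed expected counts were 106 and 96 for 4 B cell markers, 43.7 and 31.2 for 5 T cell markers, 35 and 21 for 4 neutrophil markers and 53 and 28 for 4 eosinophil markers in the NT and IL-4 libraries. They were 9.06 and 4.02 for NK cell, 30 and 18 for mast cell, 46 and 34 for mesothelial and 308.6 and 265.6 for plasmacytoid dendritic cell markers, the last mostly from Tcf4, which other cells also express. Of the markers followed, S100a9, Ly6g, Retnlg, Epx, Ccr3, Fcer1a and the plasmacytoid dendritic cell gene Siglech were not listed in either library. Other markers of the same cells were listed. The neutrophil counts were all from S100a8 (8.76 and 5.15 FPKM). Cpa3 had 19 and 15 counts, Kit 10 and 3, and Ccr9 6.14 and 2.14 in the NT and IL-4 libraries. Of the macrophage markers, Cd14 was called lower (1219 and 591 counts, log2 ratio -1.07) and Csf1r higher (6236 and 11896 counts, 0.90). Siglecf and the mesothelial gene Msln were called lower in the IL-4 library, from 53 to 27 and from 12 to 2 counts, and the part of these cells in the results was not tested. In bulk RNA, fewer cells of a type and less RNA per cell cannot be told apart.

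The ISGs as a group had a median ratio near that of all genes upon IL-4 stimulation, and 7 members passed the test, in both directions. Zbp1, Ifi204, Ifi47 and Gbp6 rose, and Slfn5, Oas2 and Mx1 fell. The members together took 17012 expected counts in NT cells and 17349 upon IL-4, a log2 ratio of 0.00 after scaling to the library totals. Their summed level was 804.6 FPKM in NT cells and 844.8 FPKM upon IL-4. The median log2 ratio of the 50 members was -0.03, and that of all 15593 genes tested was -0.03 as well. Of the 50, 24 had a ratio over 0 and 26 a ratio under 0.

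Calls required a log2 ratio of 0.75 or more in size, an exact binomial p-value of at most 0.05 and a Benjamini-Hochberg (BH) value of at most 0.5, which are thresholds given in the study for this comparison. The test concerns the reads of these libraries and says nothing of the variation between mice. It called 4 of 50 members higher (8.0%), beside 4.07% of all genes tested, and 3 of 50 lower (6.0%), beside 6.28% of all genes. Among members with at least 50 counts in the library with more, 4 of 41 were higher (9.76%, beside 4.32% of all such genes) and 2 of 41 were lower (4.88%, beside 6.83%). Within these 41 members, 27 (65.9%) had a log2 ratio under 0.5 in size, whereas 77.0% of all genes of that depth did. The interval of counting error lay wholly inside the threshold on both sides for 26 of the 50 members, beside 7423 of all 15593 genes tested. For those members this leaves out a difference of 0.75 between these libraries as far as counting error goes.

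The calls depended on the variation assumed between animals, which could not be estimated here. When the edgeR exact test was given a coefficient of variation of 0.2 between animals, Zbp1, Ifi204 and Ifi47 were called higher (2.50% of all genes) and Slfn5 lower (2.71% of all genes). With a coefficient of 0.4 no member was called, beside 0.417% of all genes called higher and 0.0513% called lower.

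**Figure D1:**
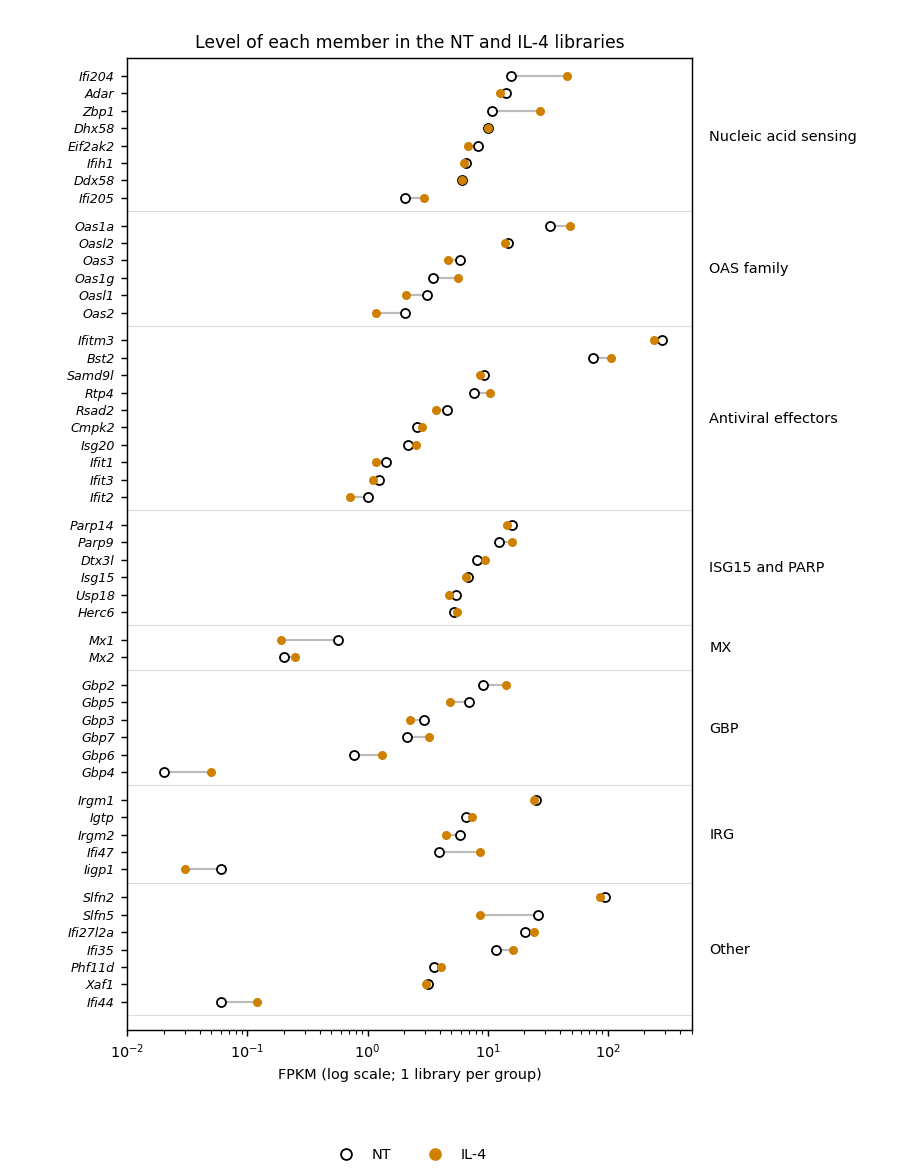
Level of each listed member in FPKM (log axis) in the NT library (open circles) and the IL-4 library (filled circles), 1 library per group, grouped by role. Most pairs lie close together, whereas Zbp1 and Ifi204 moved to the right and Slfn5 to the left, from 26.48 to 8.68 FPKM.

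The members covered a wide range of levels, from 0.02 FPKM for Gbp4 to 282.86 FPKM for Ifitm3 in NT cells. Ifitm3, which blocks the entry of enveloped viruses, was the highest in both libraries, with 241.27 FPKM upon IL-4. Slfn2, a Schlafen protein linked to immune cell quiescence, followed at 94.92 FPKM in NT cells and 85.75 FPKM upon IL-4. Bst2, which encodes tetherin, stood at 75.42 and 107.38 FPKM and passed Slfn2 in the IL-4 library. Among the 51 members ranked by FPKM, Zbp1 moved from place 14 to 6, Ifi204 from 9 to 5, Ifi47 from 31 to 19, and Slfn5 from 5 to 18.

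**Figure D2:**
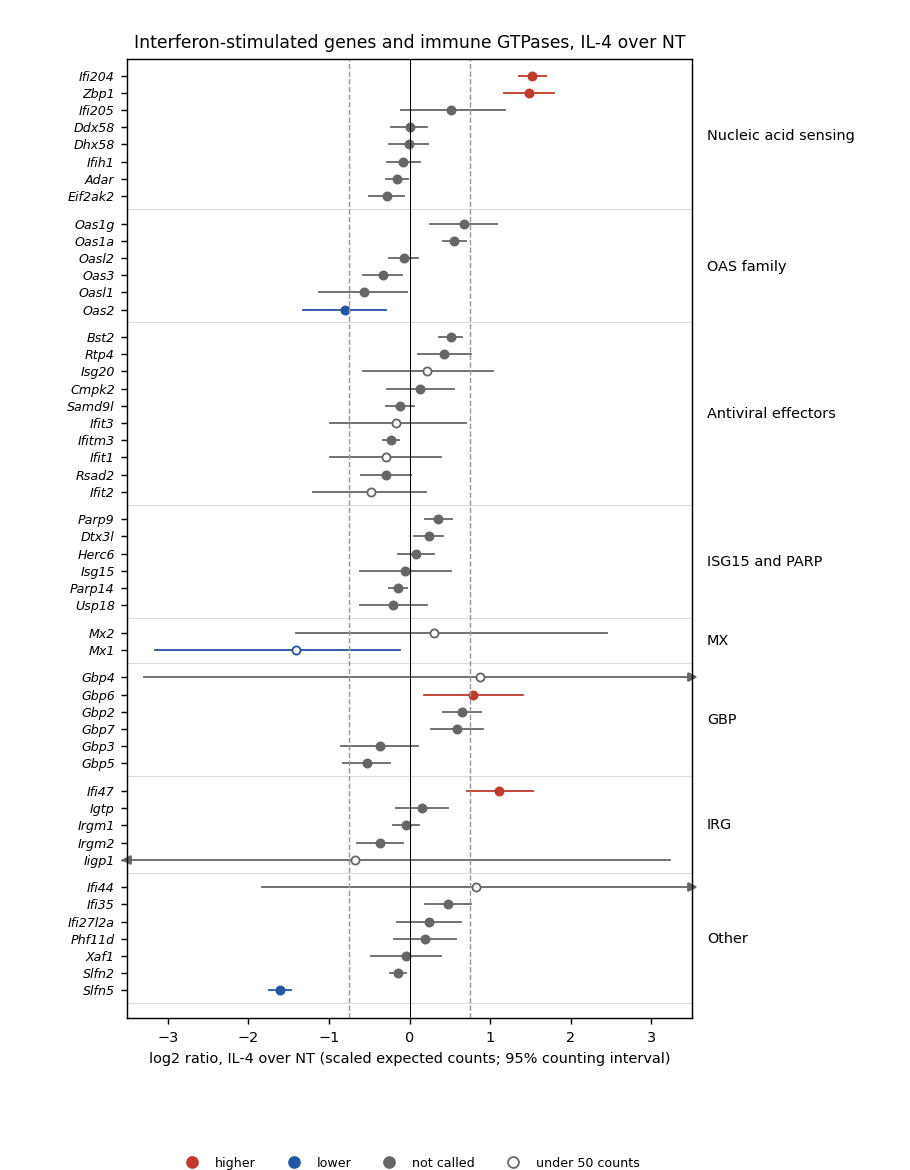
Log2 ratio of IL-4 over NT for the 50 listed members, with 95% counting intervals as bars, arrows where an interval leaves the axis, dashed lines at 0.75 in size, and open circles for members under 50 counts in both libraries. Most intervals lie near 0, and Ifi204, Zbp1 and Ifi47 on the right and Slfn5 on the left stand apart with at least 50 counts.

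To show what these genes share, the promoter windows of RefSeq (GRCm38.p6, from 250 bases before to 50 bases after the start) were searched for the ISRE core GAAANNGAAA on either strand. A window was found for 37 of the 51 members. The core was present in 22 of the 37 (59.5%), and in 3.99% of the 27025 genes with a window. It lay wholly before the start in 18 members. The 21 listed members with the core had a median log2 ratio of -0.08 and the 15 without it a median of 0.08. Of those with the core, Slfn5 was called lower and none was called higher, and of those without it Ifi47 was called higher. Zbp1, Ifi204, Gbp6, Oas2 and Mx1 were not scored, so 2 of the 7 called members enter this comparison. The GAS core TTCNNNGAA was present in 13 of the 37 (35.1%, beside 9.55% of all genes) and the wider spacing TTCNNNNGAA, which Stat6 prefers, in 7 (18.9%, beside 8.01%). The median log2 ratio was 0.24 for the 7 members with the wider spacing and -0.07 for the 29 without it. None of the 7 was called, and the 0.24 was the value of Dtx3l. The 7 include the near copies Oas1a and Oas1g, and Ifit2 and Isg20, which had under 50 counts in both libraries. Matches to these cores can overlap one another, and a match is a description of letters, not evidence of binding.

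The 250 bases before the start are given for the called members with a window, for Irgm1 and Isg15, which had the ratios nearest 0 among members with at least 50 counts and a core before the start, and for Gbp2 and Gbp5, neighbours with the highest and the lowest ratio of the GBP members on chromosome 3. Each is written on the strand of its gene, and capitals mark matches to GAAANNGAAA on either strand. The windows lie at chr11:82951852-82952101 (+ strand) for Slfn5, whose window precedes a start inside the RefSeq gene bounds given below, chr11:49076337-49076586 (+) for Ifi47, chr11:48871421-48871670 (-) for Irgm1, chr4:156200819-156201068 (-) for Isg15, chr3:142620413-142620662 (+) for Gbp2 and chr3:142496684-142496933 (+) for Gbp5.
Slfn5: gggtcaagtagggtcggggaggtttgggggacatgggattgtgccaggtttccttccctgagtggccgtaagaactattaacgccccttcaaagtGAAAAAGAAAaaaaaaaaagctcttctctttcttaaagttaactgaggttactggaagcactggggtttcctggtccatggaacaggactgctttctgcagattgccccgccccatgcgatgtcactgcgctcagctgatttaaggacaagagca
Ifi47: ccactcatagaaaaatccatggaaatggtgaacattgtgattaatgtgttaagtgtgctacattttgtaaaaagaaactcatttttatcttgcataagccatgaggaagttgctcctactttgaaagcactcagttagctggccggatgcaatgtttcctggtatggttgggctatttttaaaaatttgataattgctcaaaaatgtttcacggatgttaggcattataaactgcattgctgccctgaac
Irgm1: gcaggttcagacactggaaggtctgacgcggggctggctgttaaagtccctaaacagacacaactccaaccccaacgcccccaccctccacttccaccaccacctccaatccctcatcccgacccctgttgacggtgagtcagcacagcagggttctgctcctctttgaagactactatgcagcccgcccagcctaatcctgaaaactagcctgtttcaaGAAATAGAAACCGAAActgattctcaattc
Isg15: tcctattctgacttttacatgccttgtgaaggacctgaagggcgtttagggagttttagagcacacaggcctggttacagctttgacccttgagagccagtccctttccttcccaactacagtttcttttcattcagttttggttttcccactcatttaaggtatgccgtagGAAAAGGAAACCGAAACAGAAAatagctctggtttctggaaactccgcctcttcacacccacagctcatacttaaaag
Gbp2: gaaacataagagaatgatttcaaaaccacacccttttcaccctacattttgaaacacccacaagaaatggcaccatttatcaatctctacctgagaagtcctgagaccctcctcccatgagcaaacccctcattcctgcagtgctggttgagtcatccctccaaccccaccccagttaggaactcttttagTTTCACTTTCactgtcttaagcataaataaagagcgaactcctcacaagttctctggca
Gbp5: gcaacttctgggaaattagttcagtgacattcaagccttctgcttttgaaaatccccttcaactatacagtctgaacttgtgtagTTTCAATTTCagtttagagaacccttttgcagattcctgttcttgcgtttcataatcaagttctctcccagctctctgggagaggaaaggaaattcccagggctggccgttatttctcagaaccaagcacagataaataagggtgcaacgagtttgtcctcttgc

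In Slfn5 the match lay 155 to 146 bases before the start and ran on into a stretch of adenines. The Irgm1 window held 2 overlapping matches, the first from 30 to 21 bases before the start, and the Isg15 window held 3. The Gbp2 match lay 59 to 50 bases and the Gbp5 match 165 to 156 bases before the start, both on the opposite strand. The Ifi47 window held no match. Beside Slfn5, which fell, Irgm1, Isg15, Gbp2 and Gbp5 carried the same core and were not called.

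Among the 8 genes of nucleic acid sensing, Zbp1 and Ifi204 were called higher (25%, beside 4.07% of all genes). The other 6 were not called. Zbp1 encodes a sensor of Z-form nucleic acids that can trigger necroptosis. It lies on chromosome 2 from 173206612 to 173218959 (GRCm38). Zbp1 had 122 expected counts in NT cells and 347 upon IL-4, or 10.94 and 27.28 FPKM. Its log2 ratio was 1.48, a 2.78-fold rise (interval 1.18 to 1.79). Both of its expected counts were whole numbers.

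Ifi204 encodes a PYHIN protein that binds DNA in the nucleus and cytosol (chromosome 1, 173747293 to 173767069). It had 402.35 expected counts in NT cells and 1179.28 upon IL-4, or 15.80 and 45.41 FPKM. Its log2 ratio of 1.52 (interval 1.36 to 1.69) was the largest rise among the members. Ifi204 shares 18.9% of its 31-base words with Ifi211, a neighbour of the same family that was not a member, so reads of these genes could be split in error. Ifi211 itself went from 170.37 to 468.99 counts, a log2 ratio of 1.43, and the sum of both gave 1.5 (interval 1.36 to 1.64), so the rise was also present in the sum, which does not depend on how reads were divided between them. Ifi205, a further PYHIN member, had 36.25 and 53.02 counts and a log2 ratio of 0.51 (interval -0.11 to 1.18). It shares 20.5% of its words with Ifi211, and the sum of Ifi205 and Ifi211 had a ratio of 1.31 (interval 1.07 to 1.55).

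The 3 RIG-I-like sensors of RNA were not called and had ratios near 0. Ifih1 encodes MDA5 and had 411 counts in NT cells and 397 upon IL-4. Ddx58 encodes RIG-I and had 334.76 and 341.32 counts. Dhx58 encodes LGP2, which tunes the other two, and had 273 and 276 counts. The log2 ratios of these sensors were -0.08, 0.00 and -0.01, and their intervals lay between -0.28 and 0.23. Adar, the enzyme that edits adenosine in double-stranded RNA, had a log2 ratio of -0.16 with 935 and 856 counts, which turned to 0.15 when genes of similar length were subtracted. Eif2ak2 encodes PKR, which halts translation when it binds viral RNA, and had a log2 ratio of -0.28 (interval -0.50 to -0.07). With genes of similar length subtracted, its ratio was -0.18 and its interval included 0 (-0.40 to 0.03).

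The oligoadenylate synthetase family, whose active enzymes make the messenger that activates RNase L, had ratios on both sides of 0. Of its 6 members, 1 was called, lower (16.7%, beside 6.28% of all genes). Oas1a had 695.10 counts in NT cells and 1040.68 upon IL-4, a log2 ratio of 0.55 (interval 0.42 to 0.70), below the threshold. Oas1g had 78.51 and 127.99 counts and a log2 ratio of 0.67. Oas1a shares 68.7% of its words with Oas1g, and their sum had a log2 ratio of 0.57 (interval 0.43 to 0.70). Oas2 was called lower with 89 and 52 counts, a log2 ratio of -0.80, but its interval from -1.33 to -0.29 was wide and included the threshold (exact p = 0.00157). Oas3 had a ratio of -0.33 and an interval below 0, and Oasl1 had a ratio of -0.57 (interval -1.12 to -0.03). With genes of similar length subtracted, the interval of Oas3 included 0 (-0.40 to 0.09). Before that subtraction, the intervals of Oas1a and Oas1g lay above 0 and those of Oas2, Oas3 and Oasl1 below 0. Oasl2 was near 0, at -0.07, with 511 counts in NT cells and 496.01 upon IL-4.

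None of the 10 antiviral effectors was called in either direction, beside 4.07% of all genes called higher and 6.28% called lower. The IFIT proteins, which bind viral RNA and are among the most inducible ISGs, were at low levels in both libraries. Ifit1 had 41.9 and 34.96 counts, Ifit2 had 44 and 32 counts and Ifit3 had 27.23 and 24.71 counts in the NT and IL-4 libraries. Their log2 ratios ran from -0.48 to -0.17, and all of the intervals included 0 and reached past the threshold, so a fall of 0.75 could not be told from no change at this depth. Rsad2 encodes viperin and had 193 and 161 counts, and its neighbour Cmpk2, a mitochondrial nucleotide kinase, had 92 and 103 counts. Their log2 ratios were -0.29 and 0.13, and neither interval excluded 0.

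Bst2 and Rtp4 had intervals above 0. Bst2, whose product holds budding virions at the cell surface, had 703 counts in NT cells and 1021 upon IL-4, a log2 ratio of 0.51 (interval 0.37 to 0.65.) Rtp4 had 134 and 184 counts and a log2 ratio of 0.43, and its interval included 0 (-0.02 to 0.64) with genes of similar length subtracted. Ifitm3 had an interval below 0, with 1943.7 and 1691.11 counts and a log2 ratio of -0.23 (interval -0.32 to -0.13). These differences were larger than counting error but smaller than the threshold, and with 1 library per group differences between the preparations themselves cannot be told apart from them. Samd9l, a restriction factor of poxviruses, had a ratio of -0.12, and the exonuclease gene Isg20 had 0.22 with at most 31 counts.

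In the ISG15 pathway and among the ADP-ribosyltransferases, 0 of 6 members were called, with log2 ratios from -0.20 to 0.36. Of all genes, 4.07% were called higher and 6.28% lower. Isg15, the ubiquitin-like modifier, had 56 counts in NT cells and 54.83 upon IL-4. Usp18, which removes ISG15 and also blocks the type I interferon receptor, had 107 and 95 counts. Herc6, the mouse ISG15 ligase, had 307 and 331 counts. Parp9 and Dtx3l, whose products work as a complex, had log2 ratios of 0.36 and 0.24 with intervals above 0. Parp14, which encodes a known coactivator of Stat6, had 1294 and 1194 counts and a log2 ratio of -0.14 (interval -0.26 to -0.03), which turned to 0.30 (interval 0.18 to 0.41) with the median of genes of similar length subtracted.

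Of the 14 immune GTPases, 13 were listed and 10 of these were not called. Gbp6 and Ifi47 were called higher (15.4%, beside 4.07% of all genes). Mx1 alone was called lower, with 17.1 and 6.25 counts (7.69%, near the 6.28% of all genes). The family median was 0.15 on the log2 scale. Tgtp1 was not listed in either library, whereas its near copy Tgtp2, with which it shares 83.2% of its words, had 12.07 and 31 counts and was called higher at a log2 ratio of 1.30 (interval 0.34 to 2.44).

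Mx1 and Mx2, dynamin-like GTPases against orthomyxoviruses and other viruses, were close to the limit of detection. Mx1, which carries a deletion that inactivates its protein in C57BL/6 mice, had 17.1 counts in NT cells and 6.25 upon IL-4. Its log2 ratio was -1.41 (interval -3.16 to -0.12, exact p = 0.0309). Mx2 had 5.25 and 6.75 counts.

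The GBP genes, whose products coat and lyse pathogen vacuoles, had ratios on both sides of 0. On chromosome 3, Gbp2 had 249.58 counts in NT cells and 399.58 upon IL-4, a log2 ratio of 0.65 (interval 0.42 to 0.88.) Gbp7 had 134.22 and 206.17 counts and a ratio of 0.59 (interval 0.27 to 0.92). Their neighbour Gbp5, which promotes inflammasome activation, had 234.98 and 165.81 counts and a ratio of -0.53 (interval -0.82 to -0.24). Gbp3 had 84.78 and 66.83 counts and a ratio of -0.37 with an interval that included 0. The intervals of Gbp2 and Gbp7 did not overlap that of Gbp5, although none of these genes passed the threshold.

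On chromosome 5, Gbp6 was called higher with 37.06 and 65.45 counts, a log2 ratio of 0.78 (interval 0.18 to 1.41, exact p = 0.00959). It shares 51.4% of its words with Gbp10, which was not listed. Gbp4 had 1.05 and 2.4 counts, too few for a ratio to be read. The chromosome 5 relative Gbp9, which was not a member, rose (27.3 and 65.32 counts), with a log2 ratio of 1.22 (interval 0.57 to 1.94).

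Of the IRG GTPases, Ifi47 was called higher (1 of 5 listed, 20%, beside 4.07% of all genes). The others that could be measured did not pass the threshold. Ifi47, an effector GTPase of the family (chromosome 11, 49076587 to 49096987), had 76 counts in NT cells and 167.96 upon IL-4, or 3.97 and 8.59 FPKM. Its log2 ratio was 1.11, a 2.16-fold rise, with an interval from 0.72 to 1.53. The regulatory members Irgm1, Irgm2 and Igtp (Irgm3) had log2 ratios of -0.04, -0.36 and 0.15. Igtp shares 15.9% of its words with Irgm2, and their sum had a ratio of -0.13 (interval -0.35 to 0.08). Irgm1 was the most abundant, with 623.04 and 615.85 counts. The interval of Ifi47 did not overlap those of these 3 regulators. Iigp1 had at most 2 counts in either library.

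Slfn5 had the log2 ratio furthest from 0 among the members, although with genes of similar length subtracted Ifi204 and Mx1 lay further from 0. It encodes a Schlafen protein with a nuclear role in repression of transcription and lies on chromosome 11 from 82951349 to 82964850. Slfn5 had 1771.05 expected counts in NT cells and 591.94 upon IL-4, or 26.48 and 8.68 FPKM. Its log2 ratio was -1.61 (interval -1.75 to -1.47), so that the IL-4 level was 0.328 of the NT level. Slfn2, in the same gene cluster, had 1757.22 and 1619.27 counts and a log2 ratio of -0.15 (interval -0.24 to -0.05). The pair had nearly equal counts in NT cells, at lengths of 1684 bases for Slfn2 and 5989 for Slfn5. Per length, Slfn2 was the higher in both libraries. Slfn2 and Slfn5 had 94.92 and 26.48 FPKM in NT cells and 85.75 and 8.68 FPKM upon IL-4.

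The remaining members were not called. Ifi35 had 174 counts in NT cells and 247 upon IL-4, a log2 ratio of 0.48 (interval 0.19 to 0.77.) Ifi27l2a was fairly abundant for its length, at 20.61 and 24.29 FPKM, with a ratio of 0.24. Xaf1, which antagonizes the apoptosis inhibitor XIAP, had 91.36 and 90.09 counts, and Phf11d had 107.66 and 125.56 counts. Ifi44 had at most 4.03 counts.

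**Figure D3:**
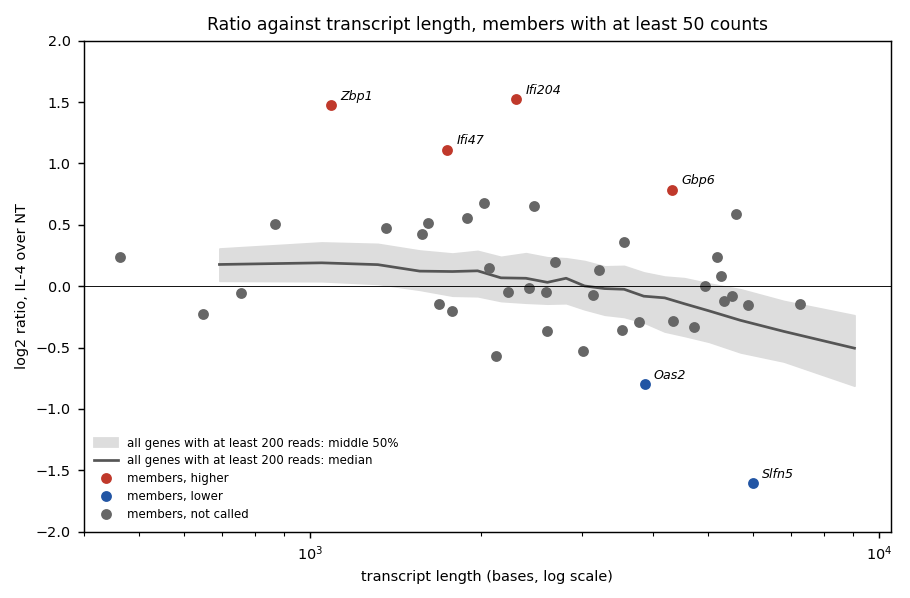
Log2 ratio of IL-4 over NT against transcript length (log axis) for the 41 members with at least 50 counts (points, named where called), with the median (line) and the middle 50% (band) of all genes with at least 200 reads in 20 bins of length. The line falls with length, and Zbp1, Ifi204, Ifi47, Gbp6, Oas2 and Slfn5 lie outside the band.

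Ratios in these libraries fell with transcript length across all genes, so the members were also set against genes of similar length. Over the 41 members with at least 50 counts, the Spearman correlation of log2 ratio with length was -0.34, and over 8463 genes with at least 200 reads it was -0.45. These values describe genes of the same pair of libraries, which are not independent. The 22 members shorter than the median of all genes (2707 bases) had a median log2 ratio of 0.21, and the 19 longer ones a median of -0.12. With the median of genes of similar length subtracted, these medians were 0.13 and 0.15. Slfn5, at 5989 bases, had a ratio of -1.33 after this subtraction, and Zbp1, Ifi204 and Ifi47 had 1.29, 1.46 and 1.01. Oas2 lost its call at -0.72, and Gbp7, at 5604 bases, gained one at 0.88. In these calls only the ratio was adjusted, and the p-values stayed those of the unadjusted counts. The part of library preparation in this trend was not tested.

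To place the members within their pathway, 103 other interferon genes were followed. Of these, 89 were listed, 9 were called higher (10.1%) and 4 lower (4.49%), beside the same backgrounds of 4.07% and 6.28%. Their median log2 ratio was 0.05. None of the 10 interferon genes followed, including Ifnb1, Ifng and 4 Ifna genes, was listed in either library. The smallest level listed for any gene was 0.01 FPKM, but the level that 1 read gives depends on length. A single count of Prg2, at 838 bases, was 0.11 FPKM in the IL-4 library. The interferon genes were therefore not shown to lie below 0.01 FPKM.

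**Figure D4:**
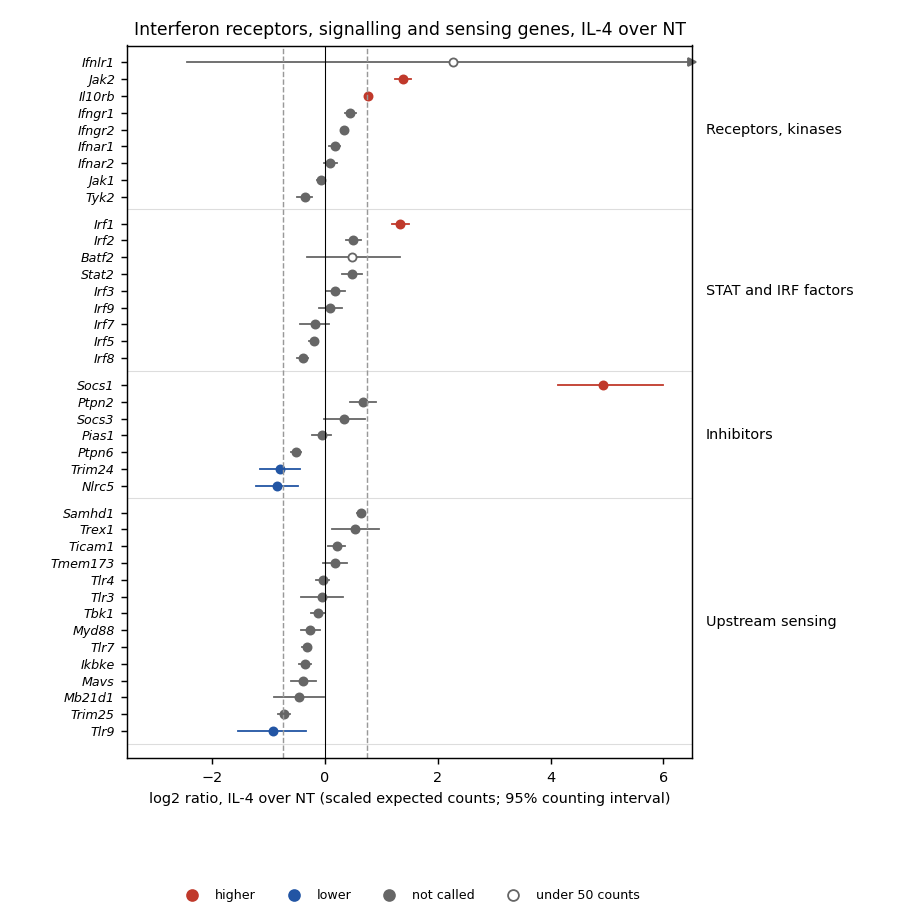
Log2 ratio of IL-4 over NT with 95% counting intervals for interferon receptors and kinases, STAT and IRF factors, inhibitors and upstream sensing genes, with dashed lines at 0.75 in size, open circles under 50 counts and an arrow where an interval leaves the axis. Socs1 stands far to the right at 4.92, and Jak2 and Irf1 exceed 1, whereas Irf9 and Irf7 lie near 0.

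The chains of the type I receptor, Ifnar1 and Ifnar2, had log2 ratios of 0.18 and 0.10, and those of the interferon-γ receptor, Ifngr1 and Ifngr2, had 0.45 and 0.35. Il10rb, a chain shared by the receptors of IL-10 and type III interferons, was called higher at 0.76, just past the threshold (interval 0.71 to 0.82), and lost its call with genes of similar length subtracted (0.62) and with a total that left out the 100 most abundant genes. Jak2 rose (568 and 1509 counts), with a log2 ratio of 1.38 (interval 1.24 to 1.52.) Jak1 and Tyk2 had ratios of -0.07 and -0.36 and were not called.

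Of the 9 transcription factors followed, Irf1 was the only call (11.1% higher, beside 4.07% of all genes). Irf1, which drives many ISGs and GBP genes, rose (526 and 1352.96 counts), with a log2 ratio of 1.33 (interval 1.19 to 1.48.) Stat2 and Irf9, which act at the ISRE, were not called, with log2 ratios of 0.48 and 0.10. Irf7, itself an ISG, had 273 and 245 counts and a ratio of -0.18.

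The inhibitors held the largest change. Socs1, which blocks Jak kinases downstream of interferon and IL-4 receptors, rose from 11 to 355 counts, or 0.83 to 26.06 FPKM. Its log2 ratio was 4.92 (interval 4.13 to 6.00.) Socs1 remained the 1 pathway gene called with an assumed coefficient of variation of 0.4. Nlrc5, better known as the transactivator of MHC class I genes, and Trim24 were called lower at -0.84 and -0.79, and both ratios fell within the threshold when genes of similar length were subtracted (-0.45 and -0.53). Among 14 genes of upstream sensing, Tlr9, the receptor of CpG DNA, was called lower with 71 and 38 counts (7.14%, beside 6.28% of all genes). Mavs, Tmem173 (STING), Mb21d1 (cGAS) and Tbk1 had ratios from -0.45 to 0.18 with no call. Trim25, at -0.73 (interval -0.84 to -0.62), and Samhd1, at 0.64 (interval 0.56 to 0.72), were not called either. Of the 14 intervals, 8 lay below 0, 3 lay above 0 and 3 included 0. Over all 15593 genes tested, 3179 lay below 0, 2787 above 0 and 9627 included 0. All 14 had at least 50 counts, beside 9925 of all genes, and more counts give narrower intervals. With genes of similar length subtracted, the intervals of Mb21d1 (-0.80 to 0.09), Ticam1 (-0.01 to 0.30) and Trex1 (-0.06 to 0.77) included 0. That of Tlr4 (0.28 to 0.52) then lay above 0.

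Of 54 further ISGs, 50 were listed, 5 were called higher (10%, beside 4.07% of all genes) and 1 lower (2.0%, beside 6.28%). Besides Gbp9 and Tgtp2, the higher genes were Ifi30, a lysosomal thiol reductase (4498 and 7760 counts, log2 ratio 0.76), Psmb9, an immunoproteasome subunit (140 and 246 counts, 0.78), and the IRG gene Gm4951, with at most 9.64 counts. Ifi30 and Psmb9 lost their calls when genes of similar length were subtracted (0.57 and 0.58), and Ifi30 also with a total that left out the 100 most abundant genes. The lower gene was Slfn1, with 25 and 11 counts.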

How the data were processed

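RNA of the NT and IL-4 macrophages was sequenced on an Illumina HiSeq by BGI. Per the labels and the study's methods, Bowtie was used by the authors for mapping to GRCm38/mm10 and RSEM for quantification (versions not given in the sources used here). The deposited tables give each gene an expected count, not scaled for depth, an FPKM value, scaled by the authors for length and depth, and a length in bases. A gene absent from a table was set to 0. Symbols came from a RefSeq table of GRCm38.p6 (15587 of 15623 genes matched).

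The log2 ratio used expected counts scaled to the library totals with 0.5 added. For the test, expected counts were rounded, and each of 15593 genes was tested by an exact two-sided binomial test (smaller tail doubled) of how its reads divided between the libraries, given the totals, with BH adjustment over all genes. Intervals are exact Clopper-Pearson 95% intervals. They cover counting error only, and PCR reads are not independent molecules. For the length trend, each gene was compared with the median ratio of its closest neighbours by length, taken from genes of 200 or more reads. Calls with this trend subtracted, and calls from FPKM, replaced only the ratio and kept the p-values of the counts. Shared sequence was counted as 31-base words in GENCODE M21 transcripts.

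The members, lists and tests were chosen with earlier results of these data known. By the rule for named genes, any member, any pathway gene other than a further ISG, any near copy of a member and any further ISG called with at least 50 counts could be named. Gm4951, Slfn1, Slfn4, Slfn8, Slfn9, the other PYHIN genes and the Cxcl genes lie outside that rule and were named after their values were seen. The calling procedure was tested on simulated data. Alternatives were other scalings (edgeR 4.0.16 TMM, DESeq2 1.42.0), FPKM, other thresholds (the fold of 1.5 in the study's methods among them) and filters, the edgeR exact test with assumed variation and the length trend. Python 3.11.15, scipy 1.17.1, pandas 2.3.3 and R 4.3.3 were used.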

Additional observations from a re-analysis of the deposited data

How the results depend on the processing

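No paired analysis was possible because neither NT nor IL-4 cells had a replicate. The values reported were 4 members higher, 3 lower, a median log2 ratio of -0.03 over the members, and 9 pathway genes higher and 4 lower. TMM scaling, median-of-ratios scaling and a total without the 100 most abundant genes left the calls of all 7 called members as they were and moved the median of all genes by at most 0.037. FPKM with 1 added gave 1 member lower and 5 pathway genes higher and 0 lower. An assumed coefficient of variation of 0.2 gave 1 member lower and 4 pathway genes higher and 0 lower, and 0.4 gave 0 members higher and 0 lower and 1 pathway gene higher and 0 lower. A log2 ratio of at least 1 with a BH value of at most 0.05 gave 1 member lower and 5 pathway genes higher and 0 lower. A fold over 1.5 with that BH limit gave 7 members higher, with Oas1g, Gbp2 and Gbp7 added, and did not call Mx1. Subtracting the length trend gave a member median of 0.088 and 2 pathway genes lower. Over all 15593 genes the calls moved as well, from 635 higher and 979 lower in the main setting. They were 391 and 399 with FPKM plus 1, and 390 and 423 with a coefficient of variation of 0.2. They were 65 and 8 with 0.4, and 408 and 476 with a log2 ratio of at least 1. The fold over 1.5 gave 754 and 1207, the length trend 624 and 727, and genes with whole counts 481 and 644. Genes with whole counts alone, 19 of the members, gave 1 member higher, 1 lower and 5 pathway genes higher, since fewer genes were tested. Otherwise the cause was not tested.

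No called member changed its direction under the alternatives run. Subtracting the length trend turned the sign of 4 uncalled members (Ifih1, Adar, Samd9l and Parp14) and left 6 pathway genes higher. Of 614 values of single members under the alternatives, 591 left the call, or the lack of one, unchanged. In 19 a call was lost and in 4 one was gained. Zbp1, Ifi204, Ifi47 and Slfn5 lost theirs with a coefficient of variation of 0.4, and Gbp6, Oas2 and Mx1 under several settings. Depth limits Mx1, Mx2, Gbp4, Iigp1, Ifi44 and the IFIT genes.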

Other observations

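The gene clusters around Ifi204 and Slfn5 give further values. Of the other PYHIN genes on chromosome 1, Ifi207 had 2342.67 counts in NT cells and 2332.69 upon IL-4, a log2 ratio of -0.03 (interval -0.12 to 0.05). Ifi203 and Mndal had ratios of 0.27 and 0.28, and Aim2, the sensor of the DNA inflammasome, had -0.30, and none was called. The intervals of all 4 lay below those of Ifi204 and Ifi211, which reached down to 1.36 and 1.18. In the Schlafen cluster on chromosome 11, Slfn4, Slfn8 and Slfn9 had log2 ratios of 0.39, -0.29 and -0.28, and their intervals lay above that of Slfn5. Slfn1 had a ratio of -1.18 with a wide interval, from -2.38 to -0.14, that spanned the value of Slfn5. These genes were picked after their values were seen.

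Among the chemokines that interferon-γ induces, Cxcl9, Cxcl10 and Cxcl11 had 6.81, 7 and 10.43 counts in NT cells and 4.09, 1 and 13.44 upon IL-4, and none was called. These are too few reads for a direction to be read, and the 3 genes were also picked after their values were seen.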
